A study of Mus musculus with 12 samples.

Results

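Transcripts of 10 genes that mark alveolar and resident macrophages were followed in RNA-seq libraries of Cd140a+ (Pdgfra+) cells sorted by flow cytometry from mouse lung. The genes were *Csf1r*, *Siglecf*, *Siglec1*, *Marco*, *Mrc1*, *Itgax*, *Itgam*, *Adgre1*, *Ear2* and *Lyz2*, taken by name from a table of 40760 genes. All 10 passed the filter on low counts. *Siglec1* was chosen by its measured difference between the vehicle groups, while no measured value is stated for the choice of the other 9, so the vehicle values of *Siglec1* are given as a description and it is left out of counts that use those libraries. The 12 libraries fell into 4 groups of 3, namely vehicle and bleo of *WT* mice and vehicle and bleo of *Pear1*-/- mice. All mice were male and of C57BL/6 background, aged 8 to 12 weeks by the general methods of the study. *Pear1*-/- mice carried a knockout-first allele (an inserted cassette that traps the transcript) in every cell and not only in mesenchyme. Bleo (bleomycin, which injures the lung epithelium and is followed by fibrosis) was given as an aerosol into the trachea. The dose and day for these libraries, and the number of mice behind each, are not given in the sources used here. The p-values below therefore measure the spread between libraries, which may be technical.

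Macrophages of the lung include alveolar macrophages, which live in the airspaces and take up surfactant, and interstitial macrophages, which lie in the tissue. After injury, monocytes from blood also enter and become macrophages. Growth of these cells depends on the receptor CSF1R and, in the airspace, on GM-CSF. Alveolar macrophages in mouse are usually recognised by Siglec-F, CD11c (encoded by *Itgax*), MARCO and CD206 (encoded by *Mrc1*). CD11b (encoded by *Itgam*) is low on alveolar macrophages and higher on interstitial and monocyte-derived ones. F4/80 (encoded by *Adgre1*) and lysozyme M (encoded by *Lyz2*) are shared by most of these cells. The sort was for a mesenchymal protein, and none of the 10 genes is a fibroblast marker.

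The libraries held between 6702948 and 10447101 counted reads (median 9268248). *Pear1* itself had between 519 and 576 normalized counts in *WT* vehicle and between 501 and 547 in *Pear1*-/- vehicle. After bleo it had between 239 and 266 in *WT* and between 344 and 372 in *Pear1*-/-. In vehicle the ranges overlapped, with means of 547 in *WT* and 520 in *Pear1*-/-, and after bleo *Pear1*-/- was the higher. The summed count of *Pear1* thus does not check the genotype labels, so *Pear1*-/- below names the libraries so labelled. Normalized counts are those of the authors, who divided each library's counts by one size factor. *WT* vehicle replicates 1 and 3 stood apart from the other libraries, with 35472 and 35884 genes detected against 21621 to 29845 elsewhere. The spread of counts between 2 libraries was expressed as a chi-square over its degrees of freedom, where counting noise by itself gives 1. This ratio was 21.2 and 21.8 between *WT* vehicle replicate 2 and the other two libraries of its group, but between 1.73 and 2.67 between that library and the *Pear1*-/- vehicle libraries. For some of the values that rest on *WT* vehicle, the fit without replicate 2 or with replicate 2 alone is therefore also given. In fits with replicate 2 alone, that single library is assumed to vary as the other groups do. Among bleo libraries of one group it lay between 1.35 and 1.49.

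The gate was checked by its own gene. *Pdgfra*, which encodes the sorted protein Cd140a, had between 4195 and 4802 normalized counts in *WT* vehicle, between 4125 and 4203 in *Pear1*-/- vehicle, between 1338 and 1394 in *WT* bleo and between 2370 and 2403 in *Pear1*-/- bleo. Per kilobase of exonic length, *Pdgfra* reached 455 ± 32.4 in *WT* vehicle and *Csf1r* 214 ± 4.26 (normalized counts, SD, n = 3). In *WT* bleo the order was turned, with 136 ± 2.98 for *Pdgfra* and 1799 ± 27.5 for *Csf1r* (SD, n = 3). *Ptprc*, which encodes the leukocyte antigen CD45, had 416 ± 5.34 per kilobase in *WT* bleo and 184 ± 5.95 (SD, n = 3) in *Pear1*-/- bleo. Transcripts of *Csf1r* were thus present in every library of this mesenchymal gate and, in *WT* bleo, were more abundant per length than the gated transcript. In such bulk samples, fewer macrophages and less RNA per macrophage cannot be told apart.

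A pair of the genes have close copies near them in the genome, and sequence before their start sites is shown because, after bleo in *Pear1*-/- cells, the copies were lower while the members were higher (values further on). *Ear2* and *Ear1* encode eosinophil-associated ribonucleases on chromosome 14. *Lyz2* and *Lyz1* encode the lysozymes of macrophages and of Paneth cells on chromosome 10. The lines give the 250 bases before each RefSeq start (GRCm38.p6), 5′ to 3′ on the strand of the gene, at chr14:44102404-44102653 (+ strand), chr14:43819640-43819889 (- strand), chr10:117282273-117282522 (- strand) and chr10:117292869-117293118 (- strand). Capitals mark bases that differ from the copy in a global alignment.
Ear2: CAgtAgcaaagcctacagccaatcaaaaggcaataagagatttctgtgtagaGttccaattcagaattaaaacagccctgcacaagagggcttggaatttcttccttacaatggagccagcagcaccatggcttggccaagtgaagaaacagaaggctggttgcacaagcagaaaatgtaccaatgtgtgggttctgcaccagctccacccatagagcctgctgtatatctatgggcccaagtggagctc
Ear1: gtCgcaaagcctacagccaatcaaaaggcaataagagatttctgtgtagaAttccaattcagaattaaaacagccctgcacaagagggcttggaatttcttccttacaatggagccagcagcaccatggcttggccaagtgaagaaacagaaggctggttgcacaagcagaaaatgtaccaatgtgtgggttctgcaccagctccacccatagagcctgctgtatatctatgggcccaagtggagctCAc
Lyz2: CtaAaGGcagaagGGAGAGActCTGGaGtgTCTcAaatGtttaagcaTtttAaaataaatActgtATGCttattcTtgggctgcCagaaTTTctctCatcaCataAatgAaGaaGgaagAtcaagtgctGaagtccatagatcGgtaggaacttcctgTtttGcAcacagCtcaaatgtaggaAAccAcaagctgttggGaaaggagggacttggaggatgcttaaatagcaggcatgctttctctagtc
Lyz1: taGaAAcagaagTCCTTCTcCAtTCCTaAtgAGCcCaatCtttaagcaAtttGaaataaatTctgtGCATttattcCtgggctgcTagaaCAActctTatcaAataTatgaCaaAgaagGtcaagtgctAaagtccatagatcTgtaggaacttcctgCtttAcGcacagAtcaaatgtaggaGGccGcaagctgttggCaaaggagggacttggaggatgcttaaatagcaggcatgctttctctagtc
The windows of *Ear2* and *Ear1* were the same at 246 of 252 aligned positions (97.6%), and those of *Lyz2* and *Lyz1* at 200 of 252 (79.4%).

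PU.1, the product of *Spi1*, is a transcription factor needed for macrophage development that binds GAGGAA-like sites. The 6 letters GAGGAA were searched on both strands in the 250 bases before the start of the 7 members with a window in the RefSeq table. They stood in 4 of the 7 windows, those of *Mrc1*, *Itgam*, *Siglecf* and *Marco*, and in 23.3% of all 32851 windows. The window of *Mrc1* (chr2:14229164-14229413, + strand), whose transcripts rose after bleo in both genotypes, and that of *Marco* (chr1:120505025-120505274, - strand), whose transcripts did not pass the test, are shown with the matches in capitals.
Mrc1: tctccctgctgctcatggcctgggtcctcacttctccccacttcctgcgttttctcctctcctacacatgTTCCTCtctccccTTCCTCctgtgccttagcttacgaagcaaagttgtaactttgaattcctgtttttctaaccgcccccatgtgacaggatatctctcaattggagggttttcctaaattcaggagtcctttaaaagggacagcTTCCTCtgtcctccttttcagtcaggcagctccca
Marco: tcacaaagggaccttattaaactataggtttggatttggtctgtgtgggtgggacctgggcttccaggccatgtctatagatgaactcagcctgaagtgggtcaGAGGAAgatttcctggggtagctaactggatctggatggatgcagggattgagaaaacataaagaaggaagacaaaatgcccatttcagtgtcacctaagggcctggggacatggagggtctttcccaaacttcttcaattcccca
*Mrc1* had 3 matches, all on the opposite strand (TTCCTC), and *Marco* had 1. The windows of *Itgax*, *Ear2* and *Lyz2*, which rose with *Mrc1*, had none. A match of 6 letters is a description and does not show a bound site.

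Bleo raised most of these markers in *WT* cells. Of the 9 members counted, 8 were higher in *WT* bleo than in *WT* vehicle and 0 were lower, where 10.5% of the 17418 genes tested were higher and 23.5% lower. To be called, a gene needed a fold above 2 together with an adjusted p below 0.05 in the quasi-likelihood test of edgeR (Benjamini-Hochberg over all genes tested). The median log2 fold change of the 9 members was 2.88, against -0.07 over all genes. With *WT* vehicle replicate 2 alone, 8 members were higher, where 2044 of 18175 genes tested in that fit were.

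**Figure D1:**
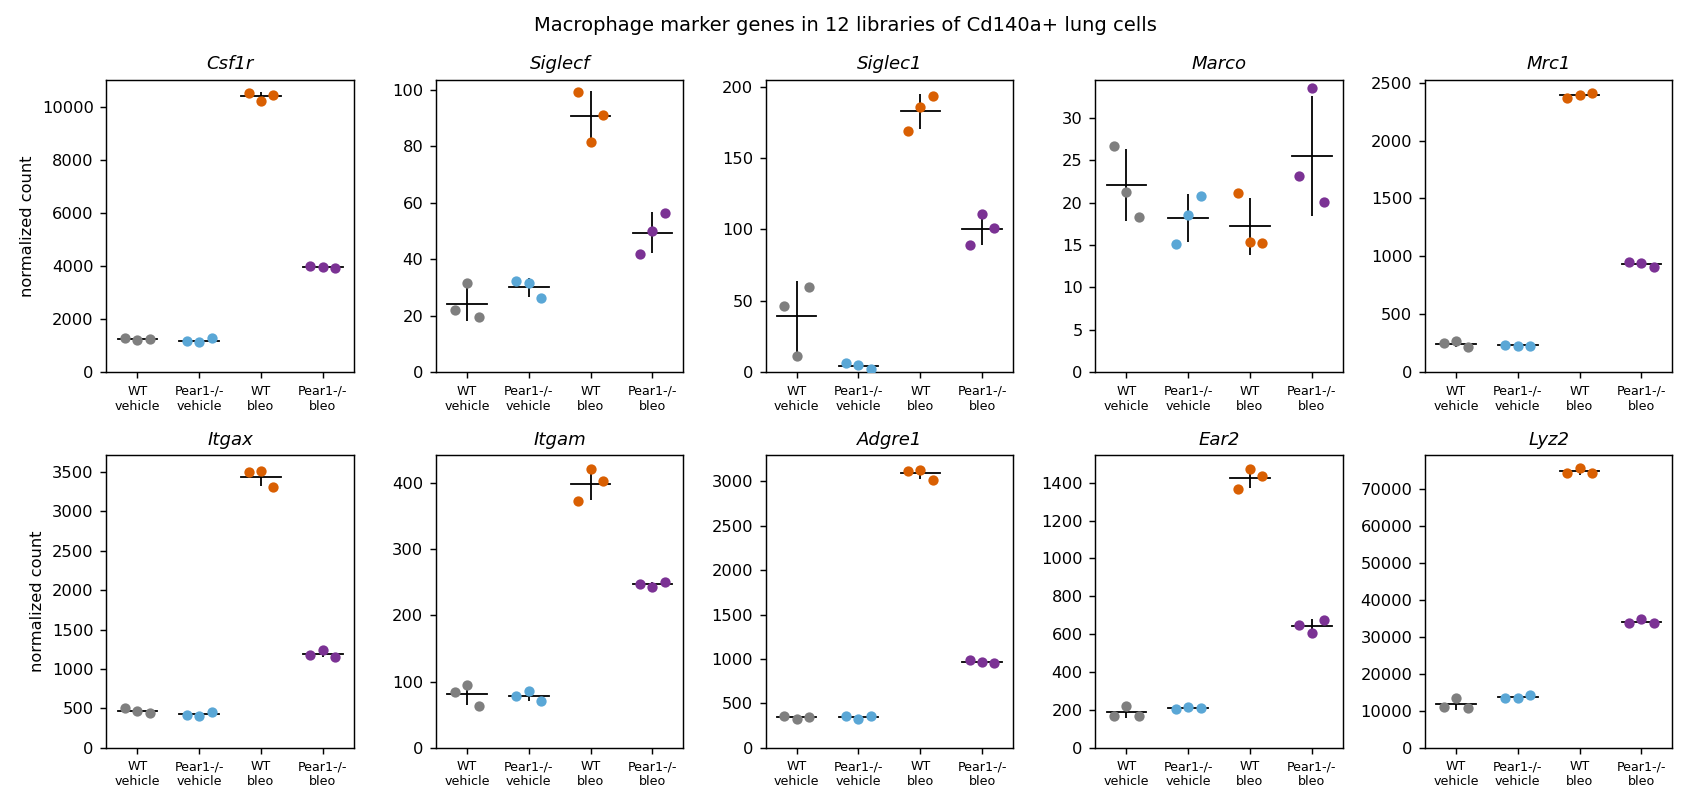
Normalized counts (vertical axes, linear, from 0) of the 10 marker genes in each library, by group on the horizontal axis. Points are libraries, horizontal bars are means and vertical bars are SDs (n = 3). In 9 panels the *WT* bleo points are the highest and the *Pear1*-/- bleo points lie between them and the vehicle points, while in the *Marco* panel all groups overlap, with no point above 33.5.

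*Csf1r* (ENSMUSG00000024621) encodes the receptor for CSF1 and IL-34, on which most tissue macrophages depend. Its normalized counts were 1264, 1216 and 1231 in *WT* vehicle and 1170, 1126 and 1265 in *Pear1*-/- vehicle. They were 10507, 10205 and 10442 in *WT* bleo and 3983, 3976 and 3934 in *Pear1*-/- bleo. Each bleo library was above each vehicle library, and the bleo groups were far apart from each other while the vehicle groups overlapped. The log2 fold change of bleo over vehicle was 3.08 in *WT* (standard error 0.066, adjusted p = 1.88e-14 by edgeR) and 1.74 in *Pear1*-/- (standard error 0.063, adjusted p = 6.49e-12).

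*Mrc1* (ENSMUSG00000026712), at chr2:14229392-14332057 on the + strand (GRCm38), encodes the mannose receptor CD206, which binds sugars on microbes and secreted glycoproteins. Its normalized counts were 249, 267 and 216 in *WT* vehicle, 236, 227 and 229 in *Pear1*-/- vehicle, 2368, 2397 and 2414 in *WT* bleo, and 955, 945 and 906 in *Pear1*-/- bleo. The rise in *WT* was 3.30 on the log2 scale (standard error 0.080), the largest of the 9 members, but with *WT* vehicle replicate 2 alone it was 3.18, against 3.28 for *Adgre1*. Replicates of each bleo group lay within a narrow range, and the 2 bleo ranges did not overlap.

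*Adgre1* (ENSMUSG00000004730), which encodes the adhesion receptor F4/80, followed a like course. Its normalized counts were 361, 321 and 342 in *WT* vehicle, 353, 324 and 358 in *Pear1*-/- vehicle, 3119, 3129 and 3019 in *WT* bleo, and 987, 967 and 952 in *Pear1*-/- bleo. It rose by 3.19 on the log2 scale in *WT* (standard error 0.075) and by 1.49 in *Pear1*-/- (standard error 0.072). Of all members it had the largest difference between the bleo groups.

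The alpha chains of 2 beta2 integrins were both higher after bleo. *Itgax* (ENSMUSG00000030789, chr7:128129547-128150657, + strand), which encodes CD11c, had 501, 469 and 441 normalized counts in *WT* vehicle and 418, 406 and 455 in *Pear1*-/- vehicle. It had 3502, 3508 and 3305 in *WT* bleo and 1174, 1236 and 1157 in *Pear1*-/- bleo, so that no bleo library reached down to the vehicle range. *Itgam* (ENSMUSG00000030786, chr7:128062640-128118491, + strand), which encodes CD11b, had 83.7, 95.4 and 63.0 in *WT* vehicle, 78.6, 85.3 and 70.9 in *Pear1*-/- vehicle, 373, 421 and 403 in *WT* bleo, and 248, 243 and 251 in *Pear1*-/- bleo. Its bleo groups did not overlap either, but they lay closer together than those of *Itgax*. A second row with the symbol *Itgam*, for an overlapping gene model that shares 66.3% of the 50-base words of *Itgam* transcripts, held 0 to 5 counts and was not used. *Itgax* shares 8.02% of its words with *Itgad*, another CD11 chain.

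*Ear2* (ENSMUSG00000072596, chr14:44102654-44103534, + strand), a ribonuclease found in eosinophils and macrophages, had 170, 221 and 168 normalized counts in *WT* vehicle, 206, 217 and 212 in *Pear1*-/- vehicle, 1368, 1473 and 1436 in *WT* bleo, and 651, 607 and 676 in *Pear1*-/- bleo. *Lyz2* (ENSMUSG00000069516), whose lysozyme cuts bacterial cell walls, was by far the most abundant. It had 10913, 13552 and 10653 in *WT* vehicle, 13531, 13355 and 14375 in *Pear1*-/- vehicle, 74162, 75754 and 74239 in *WT* bleo, and 33601, 34912 and 33839 in *Pear1*-/- bleo. In both genes *WT* vehicle replicate 2 was the highest of its group and within or near the *Pear1*-/- vehicle range.

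*Siglecf* (ENSMUSG00000039013, chr7:43351341-43359531, + strand), a sialic acid-binding lectin of alveolar macrophages and eosinophils, was much less abundant. Its normalized counts were 21.8, 31.5 and 19.5 in *WT* vehicle, 32.2, 31.5 and 26.2 in *Pear1*-/- vehicle, 99.2, 81.6 and 91.1 in *WT* bleo, and 41.7, 49.9 and 56.2 in *Pear1*-/- bleo. The log2 rise in *WT* was 1.90 (standard error 0.20, adjusted p = 9.24e-07 by edgeR). In *Pear1*-/- it was 0.71 (standard error 0.20, adjusted p = 0.00676), which passed the p criterion but not the fold criterion, although no library overlapped.

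*Marco* (ENSMUSG00000026390, chr1:120474538-120505024, - strand), a scavenger receptor that binds particles and bacteria in the airspace, did not follow the others. It had 26.7, 21.3 and 18.3 normalized counts in *WT* vehicle, 15.2, 18.6 and 20.7 in *Pear1*-/- vehicle, 21.1, 15.3 and 15.2 in *WT* bleo, and 23.1, 33.5 and 20.02 in *Pear1*-/- bleo. Each pair of groups overlapped. Its log2 fold change was -0.34 in *WT* (standard error 0.31, adjusted p = 0.339 by edgeR) and 0.51 in *Pear1*-/- (standard error 0.29, adjusted p = 0.143). At between 15 and 39 counts per library, its intervals were wide.

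In *Pear1*-/- cells, 7 of the 9 members were higher in bleo than in vehicle and 0 were lower, where 8.38% of all genes were higher and 19.4% lower. The median log2 fold change was 1.49, against -0.05 over all genes. Beside the genes already described, *Mrc1* rose by 2.02 (standard error 0.078), *Itgam* by 1.66 (standard error 0.12), *Ear2* by 1.61 (standard error 0.093), *Itgax* by 1.48 (standard error 0.075) and *Lyz2* by 1.31 (standard error 0.073). The adjusted p of these 5 genes lay between 1.13e-11 and 1.45e-08. *Siglecf* and *Marco* were the 2 members that were not called.

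The bleo groups were then compared with each other, which sets the genotypes as labelled side by side in the injured lung. In *Pear1*-/- bleo 6 of the 10 members were lower than in *WT* bleo and 0 were higher, where 8.76% of all genes were lower and 6.26% higher. The median log2 fold change of the 10 was -1.15, against -0.01 over all genes. *Adgre1* differed by -1.69 (standard error 0.069, adjusted p = 1.22e-10 by edgeR), *Itgax* by -1.54 (standard error 0.072), *Csf1r* by -1.40 (standard error 0.062) and *Mrc1* by -1.37 (standard error 0.071). *Ear2*, at -1.16 (standard error 0.085), and *Lyz2*, at -1.14 (standard error 0.072), were closer to the fold criterion. Of 9 fibroblast genes, 2 were higher and 1 lower between the same groups. Their sum was 218043 to 226129 normalized counts in *Pear1*-/- bleo against 80501 to 81064 in *WT* bleo. Most of this sum came from 2 collagen chains. *Col1a1*, at 1.73 (standard error 0.050), had means of 142173 in *Pear1*-/- bleo and 42471 in *WT* bleo. *Col1a2*, at 1.44 (standard error 0.047), had means of 63672 and 23269. The part of this shift in the members' values was not tested.

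The other 4 members were not called between the bleo groups. *Siglecf* differed by -0.89 (standard error 0.18, adjusted p = 0.000756 by edgeR) and *Itgam* by -0.70 (standard error 0.10, adjusted p = 3.94e-05), both with groups that did not overlap but with a fold under 2. Without *Pear1*-/- bleo replicate 3, *Siglecf* differed by -1.001 (adjusted p = 0.00164 by edgeR) and was called. *Siglec1* differed by -0.88 (standard error 0.26, adjusted p = 0.0121), but its adjusted p was 0.081 by DESeq2 and 0.212 by limma. *Marco* differed by 0.55 in the other direction (standard error 0.29, adjusted p = 0.136).

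Whether bleo changed a transcript by a different factor in the 2 genotypes was tested by the interaction, that is, the log2 fold change of bleo over vehicle in *Pear1*-/- minus that in *WT*. Of the 9 members, 7 had a smaller rise in *Pear1*-/- past both criteria and 0 had a larger one, where 7.06% of all genes were lower and 8.61% higher by this test. The interaction was -1.70 for *Adgre1* (standard error 0.10), -1.40 for *Itgax* (standard error 0.10), -1.37 for *Lyz2* (standard error 0.10), -1.34 for *Csf1r* (standard error 0.087), -1.33 for *Ear2* (standard error 0.13) and -1.28 for *Mrc1* (standard error 0.11). For *Siglecf* it was -1.19 (standard error 0.29, adjusted p = 0.0053 by edgeR). With *WT* vehicle replicate 2 alone it was -0.82 (adjusted p = 0.0595) and *Siglecf* was no longer called. *Itgam* had -0.65 (standard error 0.17, adjusted p = 0.00799), under the fold criterion, and *Marco* had 0.84 (standard error 0.42, adjusted p = 0.133).

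**Figure D2:**
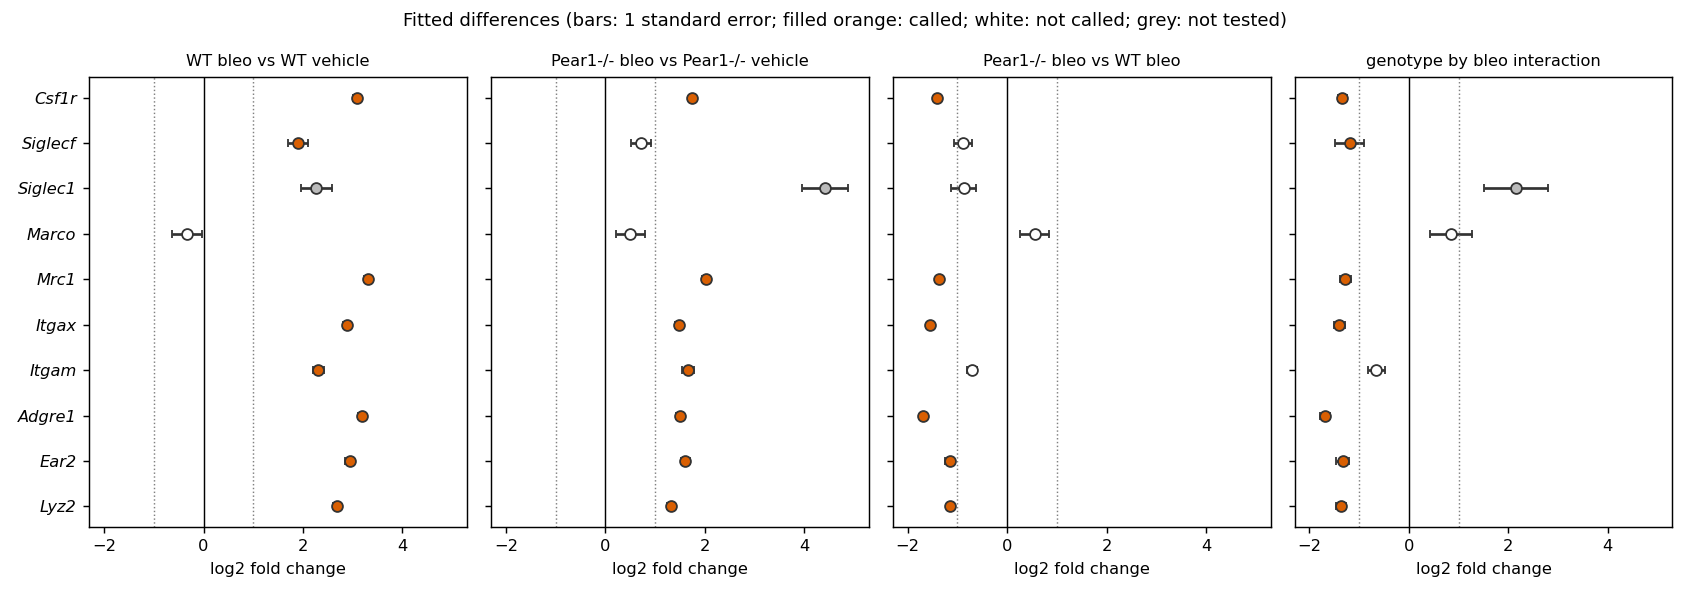
Log2 fold changes (horizontal axes, same scale) of the 10 members in 4 comparisons from one edgeR fit, with bars of 1 standard error and dotted lines at a fold of 2. Orange points passed both criteria, white points did not, and grey points (*Siglec1* where vehicle libraries enter) were not tested. Most members lie right of 0 after bleo in both genotypes, with a median of 2.88 in *WT* and 1.49 in *Pear1*-/-, and left of 0 in the other comparisons.

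*Siglec1* (ENSMUSG00000027322, chr2:131069220-131086765, - strand) encodes CD169, a lectin of resident macrophages that binds sialic acid on other cells and on virus particles. Its counts were 38, 11 and 52 in *WT* vehicle and 7, 5 and 2 in *Pear1*-/- vehicle. Normalized, these were 46.1, 11.2 and 59.5 in *WT* vehicle and 6.63, 4.64 and 2.18 in *Pear1*-/- vehicle. The fitted log2 difference of -3.03 chose this gene and is given without a test. *WT* vehicle replicate 2 was the lowest of its group and nearest to the *Pear1*-/- vehicle range, and with that library alone the difference was -1.26. One *Pear1*-/- vehicle library lay under a floor of 3 counts, a floor that covers counting error only.

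After bleo, *Siglec1* had 169, 186 and 193 normalized counts in *WT* and 88.8, 111 and 101 in *Pear1*-/-. Each bleo library was above every vehicle library. The fitted rise was 2.27 on the log2 scale in *WT*, 1.86 without *WT* vehicle replicate 2 and 4.03 with that library alone. In *Pear1*-/- it was 4.42. These values share the vehicle libraries by which the gene was chosen and are given without a test. The other 9 members differed by -0.29 to 0.29 on the log2 scale between the vehicle groups, and the vehicle groups of each of these 9 overlapped. For *Siglecf*, *Ear2* and *Lyz2* this overlap came from *WT* vehicle replicate 2, since the other two *WT* vehicle libraries lay below every *Pear1*-/- vehicle library. Without replicate 2 the difference was 0.61 for *Siglecf*, 0.42 for *Lyz2* and 0.39 for *Ear2*.

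The vehicle libraries that were high in *Siglec1* were also high in transcripts not usual for lung. Olfactory receptor genes, which are read out in sensory neurons of the nose, were summed as a measure of such low counts. *WT* vehicle replicates 1 and 3 held 5895 and 6322 of these counts, replicate 2 held 2554 and the *Pear1*-/- vehicle libraries held between 1979 and 2702. Bleo libraries held between 184 and 280. Per kilobase of exonic length, olfactory receptor genes had 0.721 to 2.01 normalized counts in *WT* vehicle, 0.592 to 0.71 in *Pear1*-/- vehicle and at most 0.0771 in bleo libraries. *Siglec1* had 1.56 to 8.33 per kilobase in *WT* vehicle, 0.306 to 0.928 in *Pear1*-/- vehicle, and 25.6 ± 1.74 in *WT* bleo and 14.03 ± 1.55 (SD, n = 3) in *Pear1*-/- bleo. The level of *Siglec1* in *Pear1*-/- vehicle was therefore near that of olfactory receptor genes, and its level after bleo was far above theirs. The part of these counts in the vehicle difference of *Siglec1* was not tested.

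**Figure D3:**
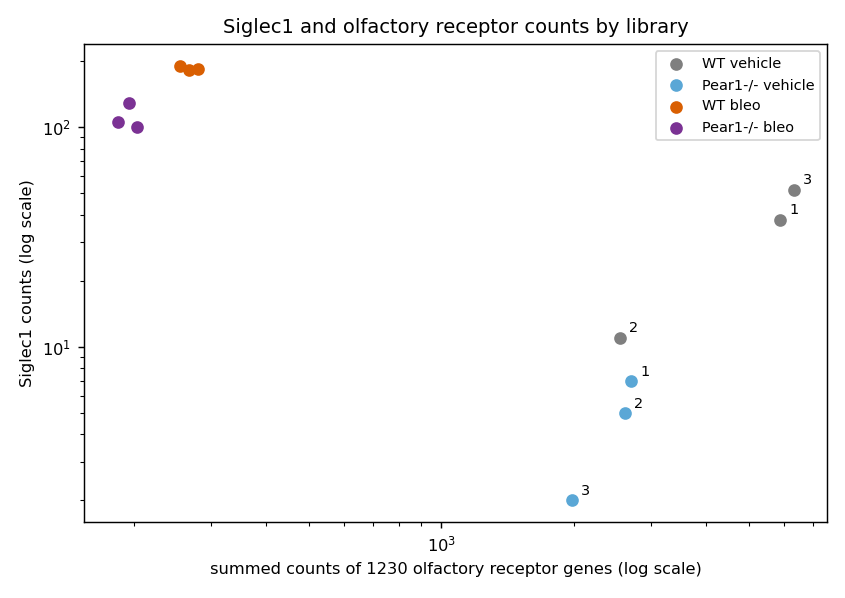
Counts of *Siglec1* (vertical axis, log scale) against the summed counts of olfactory receptor genes (horizontal axis, log scale), one point per library, with replicate numbers beside the vehicle points. Among vehicle libraries, *WT* replicates 1 and 3 lie high on both axes, at 38 and 52 *Siglec1* counts, and *WT* replicate 2 lies near the *Pear1*-/- libraries. Bleo libraries lie at 184 to 280 olfactory receptor counts and at least 100 *Siglec1* counts.

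Levels were compared between genes per kilobase of exonic length. In *WT* bleo the order of mean normalized counts per kilobase was *Lyz2* (56777), *Ear2* (1983), *Csf1r* (1799), *Adgre1* (954), *Itgax* (716), *Mrc1* (376), *Itgam* (79.4), *Siglecf* (32.5), *Siglec1* (25.6) and *Marco* (8.94), and no neighbours in this order overlapped. In *Pear1*-/- bleo the order was the same, from 25925 for *Lyz2* to 13.3 for *Marco*, but *Siglecf* overlapped with *Siglec1*, and *Siglec1* with *Marco*. In *WT* vehicle *Lyz2* was again first, at 8895, and *Ear2* second, at 259. There *Adgre1* (105) and *Itgax* (97.9) overlapped, and *Itgam* (16.1), *Marco* (11.5), *Siglecf* (8.69) and *Siglec1* (5.45) each overlapped with the next in the order. These levels assume that every exonic base of the annotation is read, which was not tested.

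General leukocyte transcripts also moved with bleo and genotype. A list of 8 pan-leukocyte genes, among them *Ptprc*, had a summed normalized count of 13670 to 19736 in *WT* vehicle, 19476 to 20719 in *Pear1*-/- vehicle, 46349 to 47373 in *WT* bleo and 24796 to 25048 in *Pear1*-/- bleo. All 8 were higher in *WT* bleo than in *WT* vehicle, 0 of 8 were called in *Pear1*-/-, where 0 were higher and 0 lower, and 2 were lower in *Pear1*-/- bleo than in *WT* bleo. By the interaction test all 8 had a lower value in *Pear1*-/-, with a median of -1.18, against 7 of 9 and a median of -1.33 for the members. Each of the 8 was highest of *WT* vehicle in replicate 2, so these results rest in part on replicates 1 and 3. *Rac2* had 2070 normalized counts in replicate 2 and a *WT* bleo mean of 2860, and *Cd53* had 2555 and 4516. *Ptprc* had 3855 and 7616. Against replicate 2 alone these genes lay under a fold of 2. Each member was therefore also given as counts per 1000 counts of this list in the same library. On this scale all genes shift with the list, and the share of all genes whose groups did not overlap is given beside each count of members.

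Relative to pan-leukocyte genes, 8 of the 9 members counted were higher in *WT* bleo than in *WT* vehicle without overlap, as were 2.45% of all genes, and *Marco* was lower, as were 87.5%. *Csf1r* went from 80.5 ± 16.4 to 222 ± 3.71 per 1000 (SD, n = 3), *Mrc1* from 15.7 ± 2.09 to 51.2 ± 0.395 and *Lyz2* from 748 ± 52.8 to 1600.4 ± 33.4. *Siglecf* moved least of the 8, from 1.52 ± 0.089 to 1.94 ± 0.191. In *Pear1*-/-, the same 8 genes were higher without overlap, as were 19.2% of all genes, 53.5% being lower. There *Csf1r* went from 59.3 ± 1.62 to 159 ± 0.718 and *Mrc1* from 11.5 ± 0.433 to 37.5 ± 0.897 (SD, n = 3). The ratio of bleo to vehicle on this scale was 2.76 in *WT* and 2.68 in *Pear1*-/- for *Csf1r*, and 3.27 and 3.25 for *Mrc1*. For *Adgre1* it was 2.96 and 2.26. For *Itgam* it was 1.67 and 2.53, and for *Marco* 0.256 and 1.13. The *WT* ratios rest on a wide *WT* vehicle group, in which *Csf1r* had 90.0 per 1000 in replicates 1 and 3 but 61.6 in replicate 2, near the *Pear1*-/- vehicle range of 57.8 to 61.0. The difference between these ratios was not tested.

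Between the bleo groups on the same scale, *Csf1r*, *Mrc1*, *Itgax*, *Adgre1*, *Ear2* and *Lyz2* were lower in *Pear1*-/- bleo without overlap, as were 5.72% of all genes. *Adgre1* had 66.2 ± 2.12 per 1000 in *WT* bleo and 38.9 ± 0.665 in *Pear1*-/- bleo, a ratio of 0.588, and *Itgax* had 73.7 ± 3.37 and 47.7 ± 1.43, a ratio of 0.648 (SD, n = 3). *Ear2* and *Lyz2* were nearer to each other in the 2 groups, with ratios of 0.847 and 0.856. *Itgam* and *Marco* were higher in *Pear1*-/- bleo, as were 74.0% of all genes, with 9.92 ± 0.2 against 8.55 ± 0.521 per 1000 for *Itgam* and 1.02 ± 0.279 against 0.369 ± 0.0755 for *Marco*. *Siglecf* and *Siglec1* overlapped.

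The same comparison was made per count of *Ptprc* alone. There *Csf1r*, *Mrc1*, *Itgax* and *Adgre1* were lower in *Pear1*-/- bleo without overlap, as were 3.18% of all genes, with ratios of *Pear1*-/- to *WT* bleo between 0.71 for *Adgre1* and 0.885 for *Mrc1*. *Ear2* and *Lyz2* overlapped, with ratios of 1.02 and 1.03, so their direction turned with the divisor. *Itgam*, *Marco* and *Siglec1* were higher, as were 79.8% of all genes. The ratio of bleo to vehicle on this scale was 3.59 in *WT* and 3.77 in *Pear1*-/- for *Csf1r*, 4.23 and 4.59 for *Mrc1*, and 3.85 and 3.17 for *Adgre1*. For *Itgax* it was 3.13 and 3.15, for *Ear2* 3.32 and 3.44, and for *Lyz2* 2.77 and 2.80. The order of the genotypes was thus turned for *Csf1r*, *Mrc1*, *Itgax*, *Ear2* and *Lyz2*, but not for *Adgre1*. In *WT* vehicle *Ptprc* had 3010 and 3043 normalized counts in replicates 1 and 3 but 3855 in replicate 2. Against replicate 2 alone the *WT* ratio of *Csf1r* is larger, and the turned order need not hold. These differences were not tested.

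**Figure D4:**
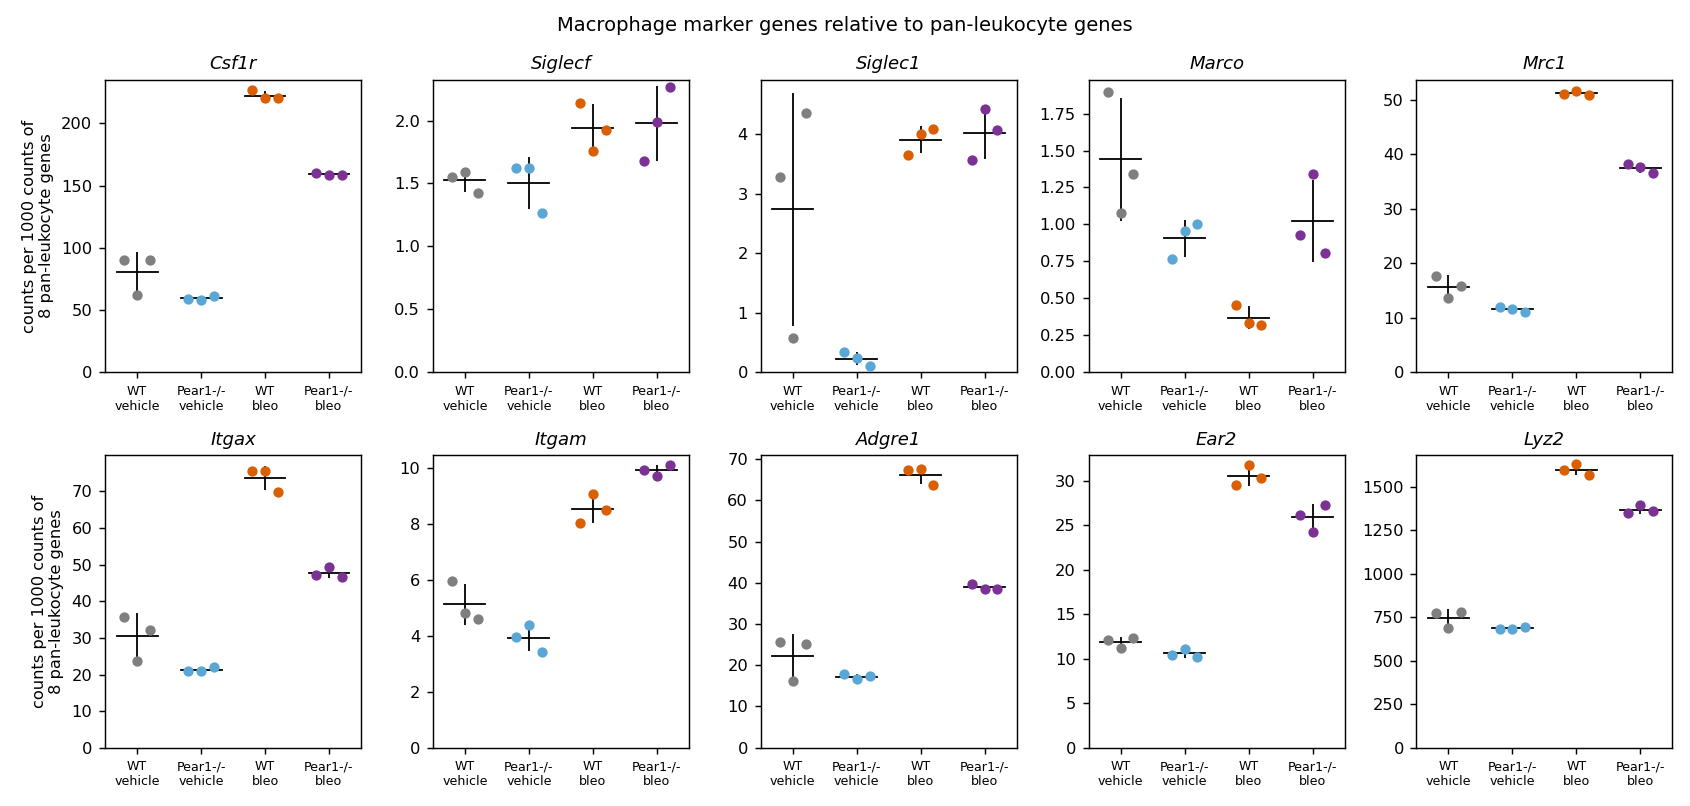
Counts of the 10 members per 1000 counts of 8 pan-leukocyte genes in the same library (vertical axes, linear, from 0), by group. Points are libraries and bars are means and SDs (n = 3). *Csf1r* lies at about 222 per 1000 in *WT* bleo and 159 in *Pear1*-/- bleo, *Itgam* is highest in *Pear1*-/- bleo, and *Marco* is lowest in *WT* bleo.

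The close copies of 2 members were measured because reads may be shared. Of the distinct 50-base words in *Ear2* transcripts, 41.5% also occur in transcripts of other genes, 5 in number, and 15.4% of those of *Lyz2* occur in *Lyz1*. The program that counted the reads, and so its handling of shared reads, is not given in the sources used here. *Lyz1* had 346, 582 and 376 normalized counts in *WT* vehicle, 597, 576 and 546 in *Pear1*-/- vehicle, 514, 481 and 488 in *WT* bleo, and 123, 99.7 and 108 in *Pear1*-/- bleo. It was thus lowest in *Pear1*-/- bleo, where *Lyz2* was above its vehicle level. *Ear1* had 34.0, 35.5 and 29.8 in *WT* vehicle, 54.9, 45.5 and 54.6 in *Pear1*-/- vehicle, 17.5, 19.4 and 18.2 in *WT* bleo, and 2.66, 5.16 and 4.77 in *Pear1*-/- bleo.

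The copies therefore went down in *Pear1*-/- cells after bleo while *Lyz2* and *Ear2* went up. *Ear1* is itself one of the other alveolar macrophage genes counted further on. *Lyz1* fell by 2.38 on the log2 scale (standard error 0.16) and *Ear1* fell by 3.58 (standard error 0.28), with adjusted p = 6.26e-09 and adjusted p = 4.19e-08 by edgeR. In *WT*, *Lyz1* differed by 0.19 (adjusted p = 0.24) and *Ear1* by -0.84 (adjusted p = 0.00585), under the fold criterion. Between the bleo groups copies and members had the same direction, with *Lyz1* lower in *Pear1*-/- bleo by -2.18 (standard error 0.16) and *Ear1* by -2.11 (standard error 0.32). The interactions of the copies were lower too, at -2.57 and -2.74. With each pair summed, *Ear2* rose by 2.72 in *WT* and 1.30 in *Pear1*-/-, and *Lyz2* by 2.64 and 1.26, so their calls were kept. For *Ear2* this sum covers *Ear1* only. The gene that shares most words with *Ear2* is *Ear10*, with 26.0% of them, and it was not part of the sum. Alveolar type 2 epithelial cells, which make surfactant, also express *Lyz2* and *Lyz1*. A list of 7 of their genes summed to 21975 to 30679 normalized counts in vehicle libraries, 11428 to 11621 in *WT* bleo and 4021 to 4144 in *Pear1*-/- bleo. Of these 7 genes, 5 were lower and 0 higher in *Pear1*-/- bleo than in *WT* bleo, with *Sftpc*, a surfactant protein, at -2.002 (standard error 0.084). The part of epithelial RNA in *Lyz1* and *Lyz2* was not tested.

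**Figure D5:**
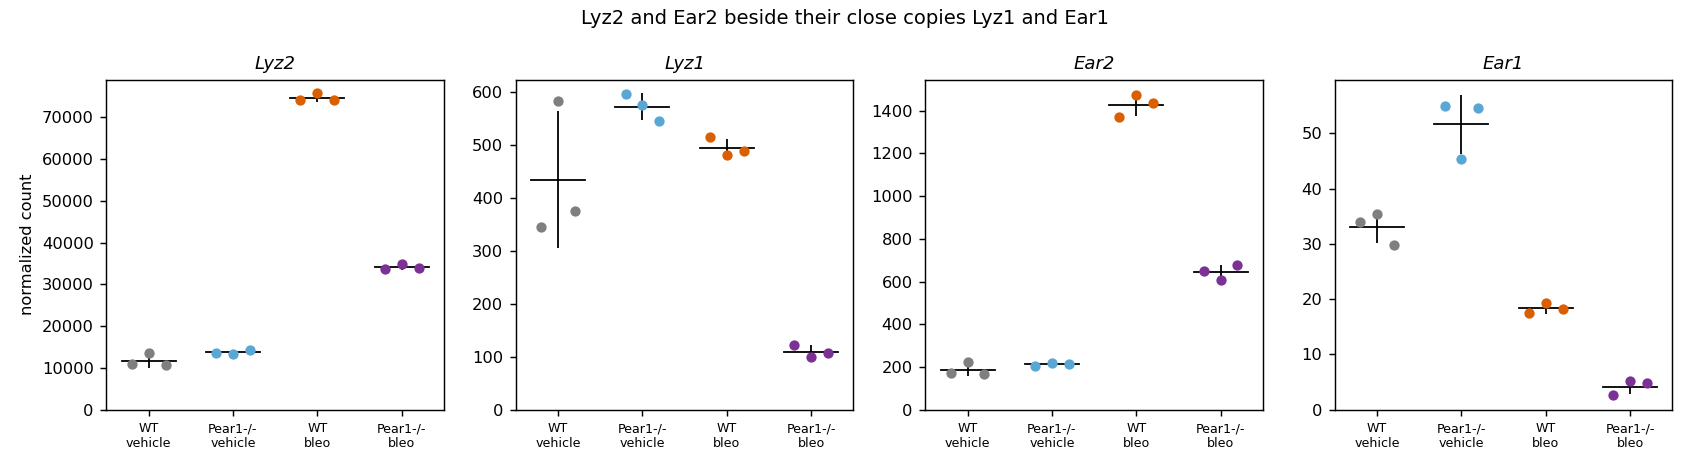
Normalized counts (vertical axes, linear, from 0) of *Lyz2*, *Lyz1*, *Ear2* and *Ear1* in each library, by group, with bars for means and SDs (n = 3). *Lyz2* and *Ear2* are highest in *WT* bleo, while *Lyz1* and *Ear1* are lowest in *Pear1*-/- bleo, at 99.7 to 123 and 2.66 to 5.16.

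Genes of the CSF1 and GM-CSF pathways, which drive growth of these cells, were compared with the receptor. Of 5 tested genes other than *Csf1r*, 3 were higher and 1 lower in *WT* bleo than in *WT* vehicle, and 3 were higher and 0 lower in *Pear1*-/-. Between the bleo groups 0 of the 5 were called (0 higher, 0 lower), where *Csf1r* differed by -1.40, and 2 had a lower interaction. *Csf2ra*, the alpha chain of the GM-CSF receptor, rose by 2.66 in *WT* and 1.65 in *Pear1*-/-. The ligand *Csf1* was lower in *WT* bleo, by -1.24, and *Il34* was not called. Of 12 macrophage transcription factors, 7 were higher in *WT* bleo, 3 in *Pear1*-/- bleo and 4 lower in *Pear1*-/- bleo than in *WT* bleo, and 0 went the other way in each. *Cebpa*, a factor of myeloid differentiation, rose by 3.47 in *WT* and 1.92 in *Pear1*-/-. *Spi1* rose by 2.10 in *WT* and differed by 0.93 in *Pear1*-/-, under the fold criterion.

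Other genes of alveolar macrophages were mixed. Of 12, *Ear1* among them, 4 were higher and 2 lower in *WT* bleo, 2 higher and 5 lower in *Pear1*-/- bleo, and 5 lower and 0 higher in *Pear1*-/- bleo than in *WT* bleo. *Atp6v0d2*, a proton pump subunit, rose by 2.79 in *WT* and *Abcg1*, a cholesterol exporter, by 2.06. *Car4*, a carbonic anhydrase, fell by 1.48 in *Pear1*-/-. *Pparg*, the nuclear receptor that sets alveolar macrophage identity, was lower in *Pear1*-/- bleo than in *WT* bleo, by -1.94 (standard error 0.18).

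Most genes listed for interstitial and monocyte-derived macrophages were higher after bleo in both genotypes. Of 14, 11 were higher and 0 lower in *WT* bleo, and 10 were higher and 1 lower in *Pear1*-/- bleo. *C1qc*, a chain of complement C1q, rose by 4.62 in *WT* and *Fcgr1*, an IgG receptor, by 4.38. Between the bleo groups 7 were lower and 1 higher in *Pear1*-/-, with *Cx3cr1*, the fractalkine receptor, at -2.04 (standard error 0.072). The 1 that was higher was *F13a1*, a transglutaminase, at 1.63, which is named here after its values were seen. Its normalized counts were 155, 152 and 159 in *WT* bleo and 473, 487 and 497 in *Pear1*-/- bleo. Of 6 monocyte genes, 1 was higher and 1 lower in *WT* bleo, 1 higher and 2 lower in *Pear1*-/- bleo, and 1 lower in *Pear1*-/- bleo than in *WT* bleo. *Ccr2*, a chemokine receptor, was higher in both genotypes, by 3.56 and 2.43, and lower in *Pear1*-/- bleo than in *WT* bleo (-1.51). *Ly6c2* was lower in both, by -1.04 and -1.21, and *Treml4*, named after its values were seen, was lower in *Pear1*-/- (-1.40).

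Relatives of the members were read in the same way. Of 6 other sialic acid-binding lectins, 4 were higher and 1 lower in *WT* bleo, 1 and 1 in *Pear1*-/- bleo, and 3 were lower in *Pear1*-/- bleo than in *WT* bleo. *Siglece* rose by 2.70 in *WT* and *Cd33* by 2.43. Of 9 scavenger receptors, the class of *Marco*, 5 were higher and 2 lower in *WT* bleo, and 4 higher and 1 lower in *Pear1*-/- bleo. *Msr1* rose by 3.92 in *WT* and 3.35 in *Pear1*-/-, where *Marco* was not called in either. Of 5 genes that work with or beside the CD11 chains, 2 were higher and 1 lower in *WT* bleo, and 2 higher and 1 lower in *Pear1*-/- bleo, with different genes among them. *Itgad*, named after its values were seen, was lower in *WT* bleo (-2.90) and higher in *Pear1*-/- bleo (3.39), and higher there than in *WT* bleo (3.68), at 0 to 22 counts per library. Its normalized counts in *WT* vehicle were 17.0, 4.06 and 11.4, so its difference in *WT* rests on replicates 1 and 3. *Fermt3*, which activates integrins, rose by 2.10 in *WT* and 1.03 in *Pear1*-/-, and *Itgb2*, the shared beta chain, rose by 1.34 in *WT*. *Itgal*, the CD11a chain, fell by 1.04 in *Pear1*-/-.

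Markers of other cells that share members of the list were at hand as well. *Siglecf*, *Ear2* and *Itgam* are also expressed by eosinophils or neutrophils. Of 6 neutrophil genes, 0 were higher and 5 lower in bleo in each genotype, with *S100a8*, a calcium-binding protein of neutrophils, at -3.15 in *Pear1*-/-. In *WT* vehicle *S100a8* had 2212, 6985 and 2240 normalized counts, so that its fold change in *WT* depends on replicate 2, and in *WT* bleo it had 399.5, 430.4 and 476. The summed neutrophil list had 4331 to 15110 normalized counts in *WT* vehicle, 14125 to 17884 in *Pear1*-/- vehicle and 1405 to 2164 in bleo libraries. Of 5 eosinophil genes 3 were tested, and 0 were higher with 1 lower in *WT* bleo and 3 lower in *Pear1*-/- bleo. Between the bleo groups 2 were lower and 1 higher in *Pear1*-/-, the latter being *Prg2*, a granule protein, at 1.77 (standard error 0.40). Of 7 dendritic cell genes, which share *Itgax*, 1 was higher in *WT* bleo, *Cd209a*, at 1.63. *Clec9a*, named after its values were seen, was the 1 that was lower in *Pear1*-/- bleo than in its vehicle (-1.09) and than in *WT* bleo (-1.58). Of 7 lymphocyte genes, 2 were lower in *WT* bleo and 4 in *Pear1*-/- bleo. Of 6 endothelial genes, 2 and 3 were lower. Over all genes tested, 23.5% were lower and 10.5% higher in *WT* bleo, and 19.4% lower and 8.38% higher in *Pear1*-/- bleo. Of 9 fibroblast genes, 6 were lower and 0 higher in *WT* bleo, and 5 lower and 2 higher in *Pear1*-/- bleo. The part of each of these cell types in the members' counts was not tested.

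Over the 12 libraries, the 9 members other than *Siglec1* moved closely with each other except for *Marco*. Pearson's r of log2(normalized count + 1) was between 0.947 and 0.998 over the 28 pairs without *Marco* and between -0.22 and -0.054 over the 8 pairs with it. These are descriptions over libraries that fall into treatment groups, so they carry no test. Among 10703 genes whose mean log2 CPM was 3 or more, the gene nearest to *Csf1r* and to *Mrc1* was *Cd68*, a macrophage lysosomal protein, with r = 0.999 for both. *Adgre1* was nearest to *Ciita*, the activator of MHC class II genes, with r = 0.9986, *Itgax* to *Pilra*, with r = 0.9983, *Ear2* to *Ctsh*, with r = 0.9988, *Lyz2* to *Arrb2*, with r = 0.9985, and *Itgam* to *Arpc4*, with r = 0.995. *Siglecf* was nearest to *Lpcat2*, with r = 0.9891, *Siglec1* to *Blm*, with r = 0.9839, and *Marco* to *Rhno1*, with r = 0.8348.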

How the data were processed

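RNA-seq of sorted Cd140a+ lung cells was analysed in 12 libraries, grouped by their labels. Per the methods of the study, the authors made cDNA with SMART-Seq v4, built libraries with TruePrep and aligned reads with HISAT2 to GRCm38 (mm10), and FastQC is named in the submitters' processing notes. The counting program is not given in the sources used here. The authors deposited raw counts per gene, and a second table whose signal values equal those counts divided by 1 size factor per library (100% of values, relative tolerance 1e-06), which is not the variance-stabilized scale that the methods name.

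Here edgeR 4.0.16 (limma 3.58.1, R 4.3.3) fitted 1 mean per group to all 12 libraries after TMM scaling and filterByExpr, with quasi-likelihood F tests and Benjamini-Hochberg adjustment over 17418 genes. The standard error is the absolute log2 fold change divided by the square root of F. The criteria, fold above 2 and adjusted p under 0.05, are those of the study. Scripts were tested on simulated data. Gene models are GENCODE M21, promoters RefSeq (7 of the 10 members have a window there that was used, aligned with Biopython 1.88). Alternatives were DESeq2 1.42.0, its size factors in edgeR, limma on log2(value + 1), no filter, only the groups compared, a replicate block, leaving out each library, summed close copies and, for values per 1000 pan-leukocyte counts only, *Ptprc* as the divisor. Sharing of 50-base words was counted between annotated transcripts. Depth was 6702948 to 10447101 counts per library, and 3 counts were taken as a floor.

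The members and the 16 comparison lists were chosen with earlier results of these data known. Named genes were all members, *Pdgfra*, *Ptprc*, *Pear1*, *Lyz1* and *Ear1*, and from each list at most the 2 called genes with the largest change, no overlap and a mean log2 CPM of at least 3. *Csf1*, *Il34*, *Spi1*, *F13a1*, *Itgad*, *Treml4* and *Clec9a* were named outside this rule, after their values were seen. For each member the nearest gene by correlation was named.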

Additional observations from a re-analysis of the deposited data

Results flagged for a closer look

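The log2 fold change of bleo over vehicle differed between the genotypes in the test of the difference itself (edgeR interaction). It passed both criteria for 7 members, where 7.06% of all genes were lower in this way, and for *Itgam* it passed the adjusted p only. All 8 pan-leukocyte genes also had a lower interaction, with a median of -1.18. Each of the 8 was highest of *WT* vehicle in replicate 2, as *Rac2* with 2070 normalized counts against 1037 and 996 in replicates 1 and 3. Their interactions with replicate 2 alone, which would be weaker, are not given here. The interaction was -1.34 for *Csf1r*, -1.19 for *Siglecf*, -1.28 for *Mrc1*, -1.40 for *Itgax*, -0.65 for *Itgam*, -1.70 for *Adgre1*, -1.33 for *Ear2* and -1.37 for *Lyz2*, each a smaller rise in *Pear1*-/-. With *WT* vehicle replicate 2 as the only *WT* vehicle library, which is then assumed to vary as the other groups do, *Itgam* had -0.41 (adjusted p = 0.11 by edgeR) and *Siglecf* -0.82 (adjusted p = 0.0595), while the other 6 kept an adjusted p under 0.05. Per 1000 pan-leukocyte counts, the ratio of bleo to vehicle was 2.76 in *WT* and 2.68 in *Pear1*-/- for *Csf1r*, 3.27 and 3.25 for *Mrc1*, 2.41 and 2.24 for *Itgax*, 2.57 and 2.44 for *Ear2*, 2.14 and 1.99 for *Lyz2*, and 2.96 and 2.26 for *Adgre1*, but 1.27 and 1.32 for *Siglecf* and 1.67 and 2.53 for *Itgam*. In *WT* vehicle *Csf1r* had 90.0 per 1000 in replicates 1 and 3 but 61.6 in replicate 2, and *Adgre1* had 25.7, 25.0 and 16.2. Against replicate 2 alone the *WT* ratios of both genes are larger. Per count of *Ptprc*, the ratio of bleo to vehicle was 3.59 and 3.77 for *Csf1r* and 4.23 and 4.59 for *Mrc1*. It was 3.13 and 3.15 for *Itgax*, 3.32 and 3.44 for *Ear2*, and 2.77 and 2.80 for *Lyz2*. For *Adgre1* it was 3.85 and 3.17, for *Siglecf* 1.64 and 1.87, and for *Itgam* 2.15 and 3.59. These differences were not tested.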

How the results depend on the processing

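Counts of members, and the vehicle difference of *Siglec1*, were recomputed in each alternative. All but 1, 212 in number, moved by at most 1.5 times for counts or by under 1 standard error for *Siglec1*. The exception was the vehicle difference of *Siglec1*, -3.03, which was -1.26 with *WT* vehicle replicate 2 alone, an alternative chosen after the data were seen, in which that library is assumed to vary as the other groups do. Over the refits of the counts or normalized counts, which leave out the scale relative to pan-leukocyte genes, the log2 fold change of bleo over vehicle lay between 3.05 and 3.22 for *Csf1r* in *WT*, between 1.54 and 2.21 for *Siglecf* in *WT*, and between -0.48 and -0.18 for *Marco* in *WT*. Of the single values of members, 904 kept their call or stayed within 1 standard error. Another 25 moved by more, 1 gained a call and 1 lost it. The 25 were vehicle differences and values of *Siglec1*, and some of the vehicle differences changed sign. None of the member values with a call changed sign in these fits. With *Ptprc* in place of the pan-leukocyte list as divisor, the ratio of *Pear1*-/- to *WT* bleo turned from 0.847 to 1.02 for *Ear2* and from 0.856 to 1.03 for *Lyz2*. These 2 genes were then no longer lower without overlap, and *Siglec1* became higher. The limit of 1.5 times still takes the counts of members changed in this way as the same. The single calls that changed were those of *Siglecf* given above, 1 gained without *Pear1*-/- bleo replicate 3 and 1 lost with *WT* vehicle replicate 2 alone. Replicate numbers share only a number: over 18 pairs of same-numbered libraries the deviations from the group means correlated between -0.161 and 0.0997. With the replicate block, 8 members were higher in *WT* bleo, 7 in *Pear1*-/- bleo, 6 were lower in *Pear1*-/- bleo than in *WT* bleo and 7 had a lower interaction, as without it. Of all 17418 genes in that fit, 1834, 1467, 1493 and 1204 were called in the same directions. Depth limited *Marco*, with at most 39 counts in a library, and *Siglec1* in vehicle libraries, with at most 52.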
